A study of Mus musculus with 6 samples.

Results

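The genes described here encode the matrix metalloproteinases (MMP), the ADAM proteins, the ADAMTS proteases and the ADAMTS-like proteins. They were taken as every protein-coding gene whose symbol is Mmp, Adam, Adamts or Adamtsl followed by a number and whose RefSeq accession is carried by a gene probe of the arrays. Of 81 such genes in the gene table, 79 had a probe (105 probes), among 20128 gene symbols with a probe, and Mmp27 and Adamtsl5 had none. The 79 comprise 22 MMP, 34 ADAM, 19 ADAMTS and 4 ADAMTS-like genes.

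RNA from whole mouse hearts was hybridised in 1 colour to Agilent arrays, 1 array per heart. In the 3 KO-labelled hearts the mice carried floxed PHD2 and PHD3 alleles together with Cre (PHD2/3f/f; Cre+/-), and in the 3 control hearts the same floxed alleles without Cre (PHD2/3f/f; Cre-/-). All mice were C57/B6 and 8 weeks old, and the labels call the hearts biological replicates. PHD2 and PHD3, encoded by Egln1 and Egln3, are oxygen-dependent prolyl hydroxylases whose mark sends hypoxia-inducible factors to destruction, and the series title names thyroid hormone receptor alpha and phospholamban as its question. The labels do not say which promoter drives Cre, so the cells in which the alleles were deleted are not known, and neither the deleted exons nor the animals' sex are stated. The labels name different RNA methods in different fields, a spin column for the hearts and elsewhere a blood kit followed by removal of globin RNA, and which was used is not known.

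Matrix metalloproteinases are zinc proteases that cut collagens, proteoglycans and other proteins outside the cell. Most are secreted as inactive precursors, the membrane-type members stay anchored at the cell surface, and tissue inhibitors (TIMPs) block them. ADAM proteins are membrane proteins with a disintegrin domain, several of which cut growth factors, cytokines and receptors off the cell surface, and others lack protease activity or serve sperm and egg. ADAMTS proteases are secreted and bind matrix. They cut proteoglycans, trim procollagens or act on microfibrils, and the ADAMTS-like proteins share their ancillary domains without the protease domain. In the injured heart several of these proteases are known for turnover of the collagen network.

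The arrays had 46.3% to 51.0% of probes well above background. Signals correlated across genes at 0.977 to 0.987 between KO-labelled arrays, at 0.983 to 0.993 between control arrays and at 0.923 to 0.970 between the groups, as a description, since genes are not independent replicates. The 6 arrays shared 1 slide and 1 scan, with the KO-labelled arrays in slide column 2 and the control arrays in slide column 1, so position on the slide and group cannot be told apart. Of the targeted genes, Egln1 was lower in the KO-labelled hearts (log2 difference -1.23 ± 0.21 SE, adjusted p = 0.00673), while Egln3 was higher (1.98 ± 0.17 SE, adjusted p = 0.00171) and so went against the label at face value. Whether these probes fall inside the deleted exons is not known, and the groups keep their labels' names throughout. The cardiomyocyte markers were well above background on all 6 arrays.

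Upstream sequences are shown first, because a run of neighbouring MMP genes shares motifs there. RefSeq promoters (build GRCm38.p6) were listed for 48 of the 79 genes, as 53 promoters, and the 250 bases before each start were searched on both strands. The motif TGANTCA, the site of the AP-1 factors (Fos and Jun), was found in 22.6% of the members' promoters and in 6.75% of all 32851 promoters in the table. Of the 12 genes that had it, 8 lie in an unbroken run of 10 Mmp genes on chromosome 9 with no other protein-coding gene between them: Mmp13, Mmp12, Mmp1b, Mmp3, Mmp1a, Mmp10, Mmp20 and Mmp7, with Mmp8 and Mmp27 as the other genes of the run. A TATAAA match, the core of the TATA box, was present in 7 of the 9 genes of the run that had a promoter, against 12.4% of all promoters. Mmp3, Mmp10 and Mmp13 are printed here as members of that run, 5′ to 3′, with TGANTCA and TATAAA in capitals, and all 3 lie on the plus strand (Mmp3 at chr9:7445572-7445821, Mmp10 at chr9:7502092-7502341, Mmp13 at chr9:7272264-7272513).
Mmp3: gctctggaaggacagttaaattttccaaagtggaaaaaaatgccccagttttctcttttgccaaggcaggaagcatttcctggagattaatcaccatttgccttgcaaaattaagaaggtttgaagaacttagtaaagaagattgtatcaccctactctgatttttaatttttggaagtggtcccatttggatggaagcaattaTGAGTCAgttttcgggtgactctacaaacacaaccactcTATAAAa
Mmp10: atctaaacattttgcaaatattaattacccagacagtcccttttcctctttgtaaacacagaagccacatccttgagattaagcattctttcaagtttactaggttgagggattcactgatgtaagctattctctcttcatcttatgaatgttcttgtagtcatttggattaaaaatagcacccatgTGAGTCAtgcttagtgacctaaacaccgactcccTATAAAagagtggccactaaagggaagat
Mmp13: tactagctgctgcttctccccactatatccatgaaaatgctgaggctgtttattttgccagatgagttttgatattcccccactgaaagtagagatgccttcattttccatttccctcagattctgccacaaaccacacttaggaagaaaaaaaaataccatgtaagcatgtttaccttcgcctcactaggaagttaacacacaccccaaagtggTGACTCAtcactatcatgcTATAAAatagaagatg

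In these 3 promoters the AP-1 motif began 46, 63 and 35 bases before the start in Mmp3, Mmp10 and Mmp13. The TATAAA match began 7, 29 and 16 bases before it in the same order. Of the 9 genes of the run with a probe, only Mmp3 could be tested. The other 8 were not well above background on all arrays of either group, and 7 of them were above background on no array. The other 4 genes with the AP-1 motif were Adam19, Adam20, Adam25 and Adam29. Among the 12, only Adam19 was called, and its match stands in the second of its 3 listed promoters. A match says only that these letters stand in the window.

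The genes called higher in the KO-labelled hearts, described further on, had 14 promoters in the table. These came from 11 of the 17 genes, and Adam19 and Mmp23 had more than 1 each. The GC box GGGCGG was found in 9 of these 14 (64.3%), in 37.7% of the members' promoters and in 32.7% of all promoters. The hypoxia response core ACGTG was found in 4 of the 14 (28.6%), in 18.9% of the members' promoters and in 16.6% of all. Adam19 supplied more than 1 of these 4. The second form of that core, GCGTG, stood in 35.7% of the promoters of genes called higher, in 32.1% of the members' promoters and in 28.2% of all, and the nuclear receptor half-site AGGTCA in 7.14%, 15.1% and 14% of the same sets. Of the 3 promoters of genes called lower, from 3 of the 5 such genes, 2 held GGGCGG, 2 held GCGTG, 1 held AGGTCA and 0 held ACGTG. No test was made of these shares. Shown here are the 3 genes called higher that hold ACGTG, with that core in capitals on whichever strand it lies: Mmp14 (chr14:54431348-54431597, plus strand), Adam10 (chr9:70678732-70678981, plus strand) and the first promoter of Adam19 (chr11:46054252-46054501, plus strand). In Adam10 and Adam19 the capitals read the same on both strands and hold 2 overlapping matches, 1 on each strand. Adamts2 (chr11:50601835-50602084, plus strand) is printed with its 5 GC boxes in capitals.
Mmp14: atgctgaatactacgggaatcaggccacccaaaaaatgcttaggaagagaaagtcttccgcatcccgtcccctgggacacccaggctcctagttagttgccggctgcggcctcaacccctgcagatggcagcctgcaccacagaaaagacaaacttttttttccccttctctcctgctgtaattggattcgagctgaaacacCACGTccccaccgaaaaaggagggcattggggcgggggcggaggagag
Adam10: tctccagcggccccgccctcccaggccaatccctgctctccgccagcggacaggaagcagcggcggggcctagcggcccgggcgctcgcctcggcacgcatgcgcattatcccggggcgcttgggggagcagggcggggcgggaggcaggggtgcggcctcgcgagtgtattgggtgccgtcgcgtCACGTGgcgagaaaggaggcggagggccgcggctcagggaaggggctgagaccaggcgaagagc
Adam19: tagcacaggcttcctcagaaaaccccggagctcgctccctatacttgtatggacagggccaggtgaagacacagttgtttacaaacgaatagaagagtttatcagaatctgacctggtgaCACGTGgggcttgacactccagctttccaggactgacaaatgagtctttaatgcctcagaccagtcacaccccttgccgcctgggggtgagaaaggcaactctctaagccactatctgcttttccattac
Adamts2: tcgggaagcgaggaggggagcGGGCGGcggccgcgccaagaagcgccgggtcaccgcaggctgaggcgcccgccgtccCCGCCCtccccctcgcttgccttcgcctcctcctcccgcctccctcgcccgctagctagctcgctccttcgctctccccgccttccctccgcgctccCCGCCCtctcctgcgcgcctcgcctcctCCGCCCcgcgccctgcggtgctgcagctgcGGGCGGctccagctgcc

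Signals are given as log2 of the processed intensity minus the 75th percentile of the same array, so a negative value lies below that percentile and a difference of 1 is a doubling of signal. Levels of different probes are not comparable. A gene was tested where all 3 arrays of either group showed a probe well above background, which held for 33 of the 79 genes. It was called at an adjusted p under 0.05 (limma, moderated variances, Benjamini-Hochberg adjustment over all 22189 features tested). Of the 33 genes tested, 17 were higher in the KO-labelled hearts, 5 were lower and 11 were not called. Over all features 15.4% were called higher and 22.6% lower (38.0% in either direction). The groups did not overlap for 25 of the 33, against 55.2% of all features. The median log2 difference was 0.51 over the 33 genes and -0.12 over all features. Genes that were dim in the control hearts could enter through the KO-labelled hearts alone, which was so for 1 of the 33, Adamts4, well above background on 1 of 3 control arrays. In RNA from a whole heart, fewer cells of a type and less RNA per cell cannot be told apart.

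The higher count depended on which heart was left out, as did the share of all features called higher. Without control replicate 3 it was 6 of 36 tested genes, where 8.43% of all features were called higher. Without control replicate 1 it was 9 of 34 (8.58% of all features), and without KO-labelled replicate 3 it was 11 of 33 (10.2%). Without KO-labelled replicate 1 it was 14 of 34 (11.7%), without control replicate 2 it was 16 of 33 (15.5%), and without KO-labelled replicate 2 it was 18 of 36 (15.0%). Under all alternatives that tested them, 5 genes were called higher (Adamts2, Adamts4, Adam12, Adam19 and Adamtsl2) and 2 lower (Adamts7 and Adamtsl4). Adamts4, which entered through the KO-labelled hearts alone, was not tested under the filter that asked for all 6 arrays above background. No called gene changed direction under any alternative.

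**Figure D1:**
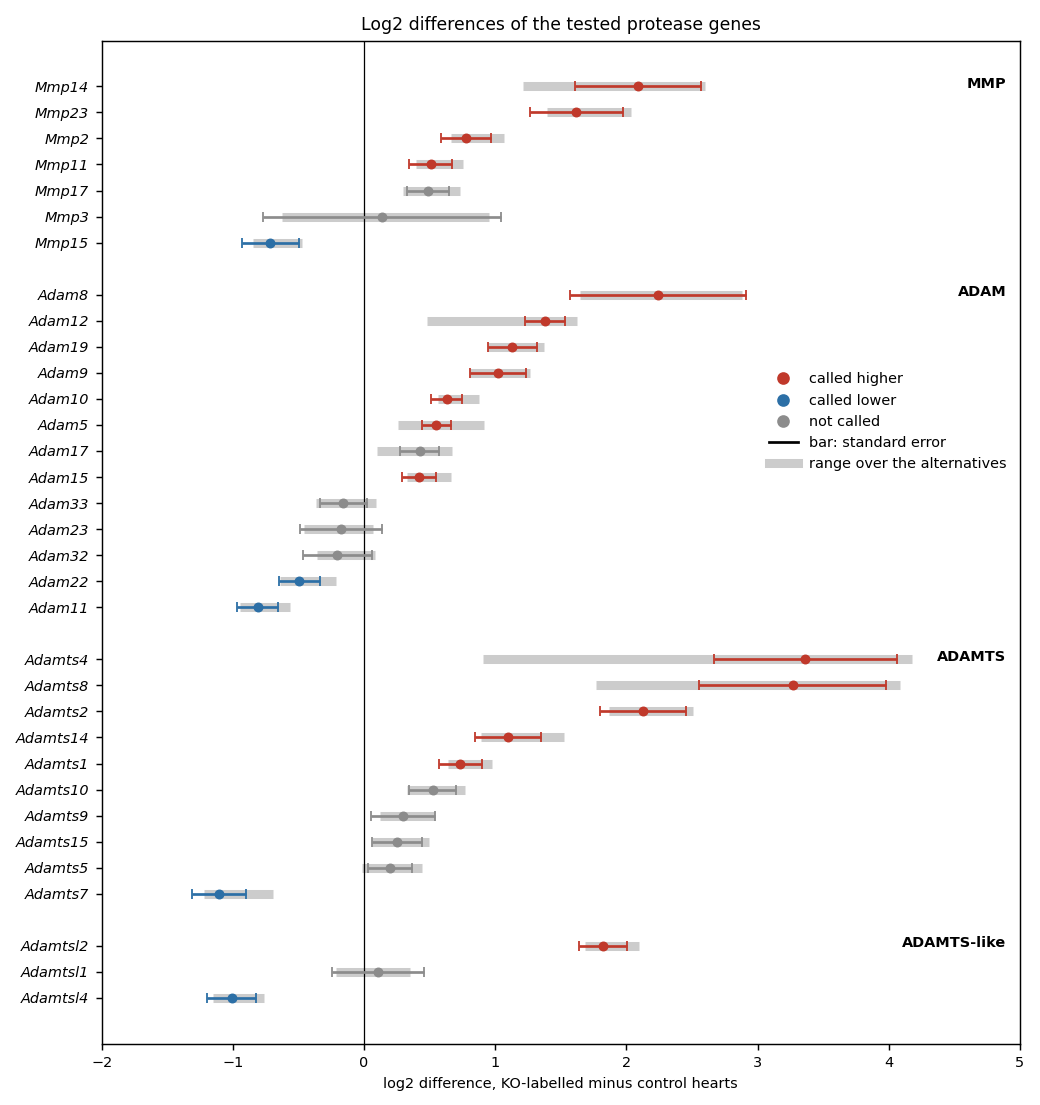
Log2 difference in signal, KO-labelled minus control hearts, for the 33 tested genes by family, with the standard error as a thin bar and the range over the alternative settings as a grey band. Red marks genes called higher, blue genes called lower and grey genes not called. The 17 red points lie right of 0 with their whole grey bands, and Adamts4 has the widest band among them, from 0.91 to 4.18.

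Among the MMP genes, 7 of 22 could be tested, and 4 were higher and 1 lower in the KO-labelled hearts. Mmp14 (NM_008608), the membrane-type protease that activates the precursor of MMP2, had signals of 0.94, -0.13 and 0.24 in the KO-labelled hearts and -2.36, -0.70 and -2.14 in the control hearts. The groups did not overlap, and control replicate 2 stood well above the other controls. The means were 0.35 ± 0.54 and -1.73 ± 0.90 (SD, n = 3 each), a 4.24-fold higher signal in KO-labelled hearts (log2 difference 2.09 ± 0.48 SE, adjusted p = 0.0173). Mmp14 was not called without control replicate 1 (adjusted p = 0.0622) or without control replicate 3 (adjusted p = 0.0646), and with normexp background correction its log2 difference was 1.21.

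Mmp2 (NM_008610), gelatinase A, which cuts denatured collagen and basement membrane, had 3.45, 3.69 and 3.88 in the KO-labelled hearts and 2.67, 3.23 and 2.79 in the control hearts. Every KO-labelled heart lay above every control heart, with control replicate 2 nearest to them, and the difference was smaller than for Mmp14 (0.78 ± 0.19 SE on the log2 scale, 1.71-fold, adjusted p = 0.022). Mmp23 (NM_011985), an atypical member held in the membrane until it is cleaved, had 3.48, 3.06 and 3.41 in the KO-labelled hearts and 1.26, 2.53 and 1.31 in the control hearts. Its groups did not overlap either, and control replicate 2 was again the highest control (3.07-fold, log2 difference 1.62 ± 0.35 SE, adjusted p = 0.0147). Mmp2 was not called without KO-labelled replicate 2 or 3 or control replicate 1 or 3 (adjusted p 0.0512 to 0.0819), and Mmp23 not without control replicate 1 (adjusted p = 0.0552) or 3 (adjusted p = 0.056).

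Mmp11 (NM_008606), stromelysin-3, which furin activates inside the cell, had 1.18, 0.64 and 1.03 in the KO-labelled hearts and 0.42, 0.51 and 0.40 in the control hearts. The groups did not overlap, but KO-labelled replicate 2 lay close to the controls. The difference of 0.51 ± 0.16 SE passed narrowly (adjusted p = 0.0492), the second probe of Mmp11 did not pass (0.33, adjusted p = 0.136), and the call was lost under 12 of 19 alternatives.

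Of 3 membrane-type genes tested, 1 was higher (Mmp14), 1 was lower and 1 was not called. Mmp15 (NM_008609), another membrane-type protease that can activate MMP2, had 0.46, 1.20 and 1.14 in the KO-labelled hearts and 1.67, 1.54 and 1.73 in the control hearts. It was lower in every KO-labelled heart than in any control, most of all in KO-labelled replicate 1 (1.64-fold lower, log2 difference -0.72 ± 0.22 SE, adjusted p = 0.0401), and was not called under 9 of 19 alternatives, among them leaving out any control heart. Mmp17, a membrane-type protease held by a lipid anchor, differed by 0.48 ± 0.16 SE and was not called (adjusted p = 0.0536). Mmp24 was above background on at most 1 array of each group, and Mmp16 and Mmp25 on none.

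Mmp3, stromelysin-1, which cuts proteoglycans and activates other MMP precursors, had 1.79, -0.68 and -0.31 in the KO-labelled hearts and -1.22, 1.76 and -0.15 in the control hearts. It was high in 1 heart of each group, KO-labelled replicate 1 and control replicate 2, and the groups overlapped throughout (log2 difference 0.14 ± 0.91 SE, adjusted p = 0.917). Mmp8, the neutrophil collagenase, and Mmp9, gelatinase B, were above background on 1 array only, that of KO-labelled replicate 1. Mmp9 had -1.74 there and -5.56 and -5.54 in the other KO-labelled hearts, against -5.62, -5.25 and -5.49 in the control hearts. Mmp8 had -2.36 there and -5.48 and -5.28 in the other KO-labelled hearts, against -5.52, -4.86 and -5.44 in the control hearts. The same heart had the highest signal of the neutrophil genes S100a8 (3.59, with -0.57 and -0.39 in the other KO-labelled hearts and -2.37 to -0.16 in the controls) and S100a9 (5.54, with 1.48 and 2.06 in the other KO-labelled hearts and -0.03 to 2.04 in the controls). Of the list of neutrophil markers as a whole, 0 of 4 tested genes were called, 2 of the 4 had a positive difference, and the summed signal of the 7 with a probe was 153, 101 and 109 times the 75th percentile in the KO-labelled hearts and 133, 112 and 132 in the control hearts. Mmp8, Mmp9, S100a8 and S100a9 were singled out after their values were seen, and the part of leukocytes in these values was not tested.

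The collagenase gene Mmp13 was not well above background on any array, at -4.29, -4.28 and -4.36 in the KO-labelled hearts and -4.16, -4.01 and -3.92 in the control hearts. Mmp1a and Mmp1b, the matrilysin gene Mmp7, the stromelysin gene Mmp10, the macrophage elastase gene Mmp12, the enamel protease gene Mmp20, Mmp21 and Mmp28 were likewise above background on none. Mmp19 was above background on 2 KO-labelled arrays and 1 control array. A gene that is not above background has no measured direction here.

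**Figure D2:**
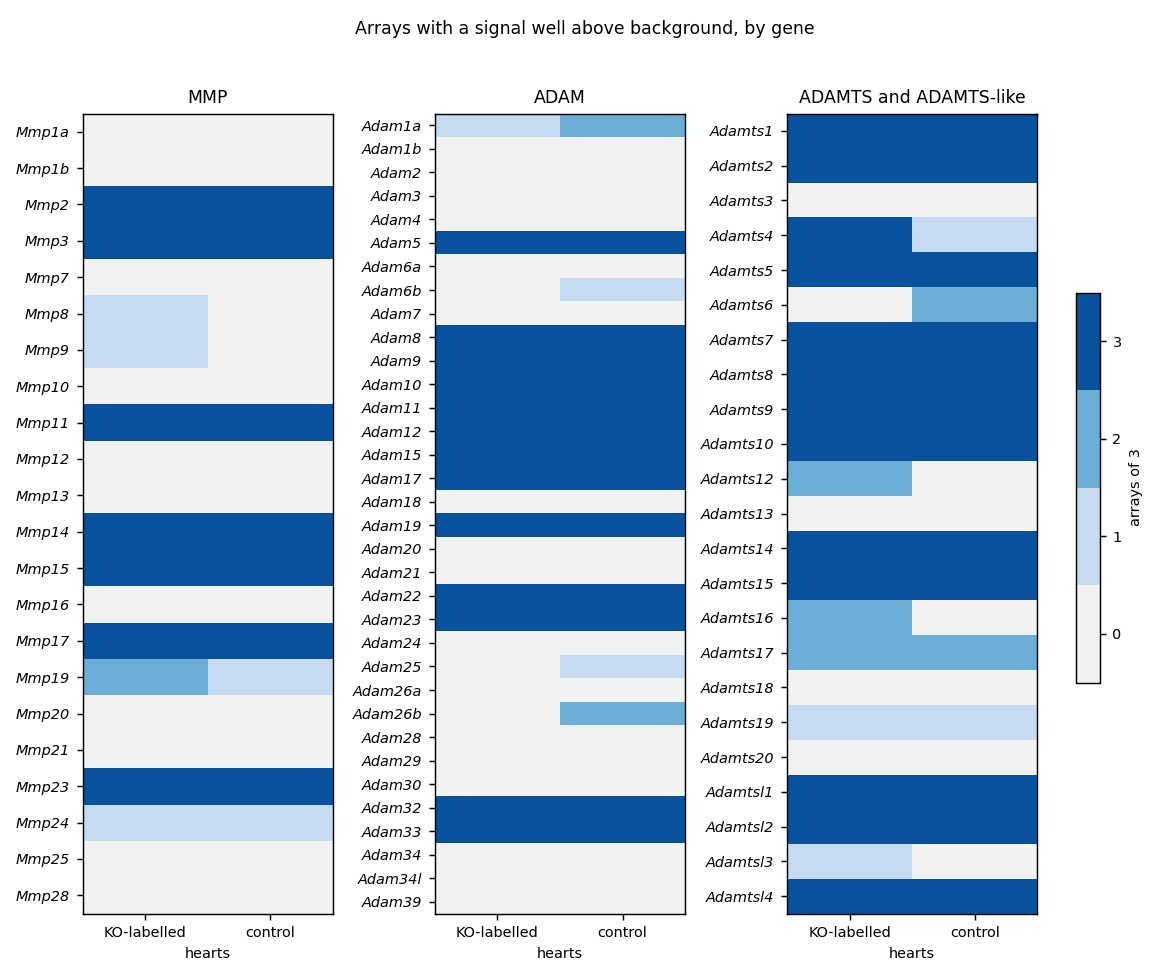
Number of arrays, from 0 to 3, on which each of the 79 genes was well above background in the KO-labelled hearts (left column of each panel) and the control hearts (right column), as the highest count over the gene's probes. In the MMP panel 7 of 22 genes are dark in both columns (Mmp2, Mmp3, Mmp11, Mmp14, Mmp15, Mmp17 and Mmp23), and most ADAM genes of the reproductive tract are pale in both.

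Among the ADAM genes, 13 of 34 could be tested, and 7 were higher and 2 lower. The genes with an active protease domain that are made outside the reproductive tract accounted for 6 of the 7, of 8 tested. The 2 lower genes were among the 3 genes of adhesion proteins without protease activity. Over all features 15.4% were called higher and 22.6% lower. These subgroup counts are small and partly fragile: Adam8 and Adam15 each lost their call under 9 of 19 alternatives, and Adam22 under 13. Adam12 (NM_007400), meltrin alpha, which sheds growth factors such as heparin-binding EGF and is known from regenerating muscle and fibrosis, had -1.28, -1.73 and -1.68 in the KO-labelled hearts and -2.93, -2.89 and -3.00 in the control hearts. The groups were far apart relative to their spread, and control replicate 2 did not stand out (means -1.56 ± 0.24 and -2.94 ± 0.06, SD, n = 3 each). The signal was 2.6-fold higher (log2 difference 1.38 ± 0.15 SE, adjusted p = 0.00274), and with normexp correction the difference of this dim probe was 0.48.

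Adam19 (NM_009616), meltrin beta, which sheds neuregulin and takes part in forming the heart valves, had 2.96, 2.72 and 2.61 in the KO-labelled hearts and 1.31, 1.70 and 1.89 in the control hearts. All KO-labelled hearts lay above all controls (2.19-fold, log2 difference 1.13 ± 0.19 SE, adjusted p = 0.00649). Adam9 (NM_007404), meltrin gamma, a widely made sheddase, had 4.69, 3.85 and 4.24 in the KO-labelled hearts and 3.29, 3.20 and 3.23 in the control hearts. The controls lay close together and KO-labelled replicate 1 was the highest (2.03-fold, log2 difference 1.02 ± 0.21 SE, adjusted p = 0.013). Adam9 was not called without control replicate 3 (adjusted p = 0.0505).

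Adam8 (NM_007403), a sheddase of leukocytes, had 2.62, 0.77 and 1.33 in the KO-labelled hearts and -1.62, 0.61 and -1.00 in the control hearts. KO-labelled replicate 2 and control replicate 2 were almost level, and the spread within each group was wide (means 1.57 ± 0.95 and -0.67 ± 1.15, SD, n = 3 each). The log2 difference of 2.24 ± 0.67 SE (4.73-fold) passed (adjusted p = 0.0394) but not under 9 of 19 alternatives, among them leaving out KO-labelled replicate 1 or 3 or control replicate 1 or 3.

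Among the sheddases with the broadest known range of substrates, Adam10 was called and Adam17 was not. Adam10 (NM_007399), which cuts Notch receptors and the amyloid precursor protein, had 3.34, 3.15 and 3.15 in the KO-labelled hearts and 2.53, 2.61 and 2.60 in the control hearts. Both groups were tight, so that a 1.55-fold difference was called (log2 difference 0.63 ± 0.12 SE, adjusted p = 0.00895). Adam17, which releases tumour necrosis factor, had -2.02, -2.04 and -1.85 in the KO-labelled hearts and -2.16, -2.61 and -2.41 in the control hearts. Its groups did not overlap, but the difference was not called (0.42 ± 0.15 SE, adjusted p = 0.0655), although it was under 5 of 19 alternatives, among them cyclic loess scaling (adjusted p = 0.0142) and spike-in scaling (adjusted p = 0.0157). Adam15, a membrane-bound sheddase, was higher by 0.42 ± 0.13 SE (adjusted p = 0.044) and lost its call when any heart was left out. Adam33, a gene of smooth muscle and fibroblasts, differed by -0.16 ± 0.18 SE (adjusted p = 0.516), and Adam28, a gene of lymphocytes, was above background on no array.

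Of the adhesion ADAMs, which bind LGI proteins at synapses and lack protease activity, Adam11 and Adam22 were lower. Adam11 (NM_009613) had 0.40, 0.60 and 0.47 in the KO-labelled hearts and 1.35, 1.04 and 1.50 in the control hearts. Every KO-labelled heart lay below every control (1.76-fold lower, log2 difference -0.81 ± 0.16 SE, adjusted p = 0.00984), and the second probe had -0.61 and did not pass (adjusted p = 0.125). Adam22 was lower by 0.49 (log2 difference -0.49 ± 0.16 SE, adjusted p = 0.0492), a call lost under 13 of 19 alternatives, and Adam23 differed by -0.18 ± 0.31 SE (adjusted p = 0.676).

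Of the 22 ADAM genes known mainly from testis and egg interaction, 2 could be tested. Adam5 (NM_007401), a sperm surface gene in mouse, had -1.19, -1.07 and -1.15 in the KO-labelled hearts and -1.68, -1.64 and -1.73 in the control hearts. It was higher in every KO-labelled heart by a small and even amount (1.46-fold, log2 difference 0.55 ± 0.11 SE, adjusted p = 0.011). With normexp the difference was 0.26 and not called (adjusted p = 0.0669). The second probe was also higher (1.28, adjusted p = 0.0103). That probe was above background on only 2 control arrays and entered through the KO-labelled hearts alone. Adam32 differed by -0.20 ± 0.26 SE (adjusted p = 0.56). Of 8 testis markers, 5 (Prm1, Tnp2, Zp3r, Odf1 and Spata19) were above background on no array, and the list's summed signal was 0.382 to 0.464 times the 75th percentile in KO-labelled hearts and 0.437 to 0.685 in control hearts. Adam1a was above background on 1 KO-labelled and 2 control arrays, Adam26b on 0 and 2, and Adam25 and Adam6b each on 0 and 1. Adam1b, Adam2, Adam3, Adam4, Adam6a, Adam7, Adam18, Adam20, Adam21, Adam24, Adam26a, Adam29, Adam30, Adam34, Adam34l and Adam39 were above background on no array.

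Among the ADAMTS genes, 10 of 19 could be tested, and 5 were higher and 1 lower. Of 6 tested proteases that cut versican and aggrecan, Adamts4, Adamts8 and Adamts1 were higher and Adamts5, Adamts9 and Adamts15 were not called. Adamts4 (NM_172845), a proteoglycan-cutting enzyme, had -0.62, -1.88 and -1.37 in the KO-labelled hearts and -5.53, -3.04 and -5.41 in the control hearts. The groups did not overlap, and only control replicate 2 among the controls was above background. The log2 difference of 3.37 ± 0.70 SE (10.3-fold, adjusted p = 0.0126) rests on control signals near background and was 0.91 with normexp and 1.89 in the authors' deposited log2 values, and it was called in both.

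Adamts8 (NM_013906), which cuts proteoglycans and is known to restrain vessel growth, had 2.13, 2.25 and 1.53 in the KO-labelled hearts and -2.68, 0.34 and -1.56 in the control hearts. The KO-labelled hearts lay together and the controls were spread widely, with control replicate 2 the highest (9.63-fold, log2 difference 3.27 ± 0.71 SE, adjusted p = 0.0146). Its probes disagreed: the second, dimmer probe had a log2 difference of 0.26 and did not pass (adjusted p = 0.327), and the mean of the probes gave 1.77. Without control replicate 3 Adamts8 was not called (adjusted p = 0.0553). Adamts1 (NM_009621), which cuts versican during heart development, had 2.85, 3.36 and 3.29 in the KO-labelled hearts and 2.35, 2.52 and 2.42 in the control hearts. The controls were tight and KO-labelled replicate 1 was nearest to them (1.66-fold, log2 difference 0.73 ± 0.17 SE, adjusted p = 0.0163). It was not called without KO-labelled replicate 3 or control replicate 1 or 3 (adjusted p 0.0587 to 0.0655). The differences of the proteoglycan-cutting genes that were not called were 0.20 ± 0.17 SE for Adamts5 (adjusted p = 0.377), 0.30 ± 0.24 SE for Adamts9 (adjusted p = 0.361) and 0.25 ± 0.19 SE for Adamts15 (adjusted p = 0.332), and Adamts20 was above background on no array.

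Both tested procollagen N-proteinases, which trim the amino end of fibrillar procollagens before they form fibrils, were higher. Adamts2 (NM_175643) had 6.38, 6.08 and 6.28 in the KO-labelled hearts and 3.60, 4.89 and 3.88 in the control hearts. The KO-labelled hearts were nearly level and control replicate 2 stood above the other controls, yet below all KO-labelled hearts (means 6.25 ± 0.15 and 4.12 ± 0.68, SD, n = 3 each). The signal was 4.37-fold higher (log2 difference 2.13 ± 0.33 SE, adjusted p = 0.00535), and the second probe had 1.71 (adjusted p = 0.0547). That second probe was above background on only 2 control arrays and entered through the KO-labelled hearts alone. Adamts14 (NM_001081127) had 0.87, 1.03 and 1.33 in the KO-labelled hearts and -0.28, 0.51 and -0.30 in the control hearts. Control replicate 2 was again the nearest control (2.14-fold, log2 difference 1.10 ± 0.25 SE, adjusted p = 0.0177), and the call was lost without KO-labelled replicate 3 or control replicate 1 or 3 (adjusted p 0.0583 to 0.068). Adamts3, the third enzyme of this kind, was above background on no array.

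Adamts7 (NM_001003911), which cuts cartilage oligomeric matrix protein and is known from vascular smooth muscle, was the ADAMTS gene that was lower. It had -2.02, -1.39 and -1.42 in the KO-labelled hearts and -0.53, -0.66 and -0.31 in the control hearts. The groups were well separated and KO-labelled replicate 1 was the lowest (2.16-fold lower, log2 difference -1.11 ± 0.21 SE, adjusted p = 0.00907), with -0.69 under normexp. Its relative Adamts12 was above background on 2 KO-labelled arrays and no control array, with -2.37, -3.07 and -2.52 in the KO-labelled hearts and -3.56, -4.43 and -4.15 in the control hearts. Adamts16 was likewise above background on 2 KO-labelled arrays and no control array, Adamts17 on 2 and 2, Adamts19 on 1 and 1, and Adamts6 on no KO-labelled and 2 control arrays. Adamts10, which binds fibrillin, differed by 0.52 ± 0.18 SE (adjusted p = 0.0586) without overlap. Adamts13, which cuts von Willebrand factor, and Adamts18 were above background on none.

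The ADAMTS-like genes split. Adamtsl2 (NM_029981), whose protein binds fibrillin and the latent TGF-beta binding proteins, had 2.97, 3.00 and 3.27 in the KO-labelled hearts and 1.02, 1.59 and 1.17 in the control hearts. It had the smallest p of all 33 genes (3.53-fold, log2 difference 1.82 ± 0.18 SE, adjusted p = 0.00242), with both groups tight and far apart. Adamtsl4 (NM_144899), a microfibril protein of the fibres that hold the eye's lens and of other tissues, had 1.58, 2.24 and 2.04 in the KO-labelled hearts and 3.04, 2.83 and 3.03 in the control hearts. It was lower in every KO-labelled heart (2.02-fold lower, log2 difference -1.01 ± 0.19 SE, adjusted p = 0.00936). Adamtsl1 differed by 0.11 ± 0.35 SE (adjusted p = 0.83), and Adamtsl3 was above background on 1 KO-labelled array and no control array.

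**Figure D3:**
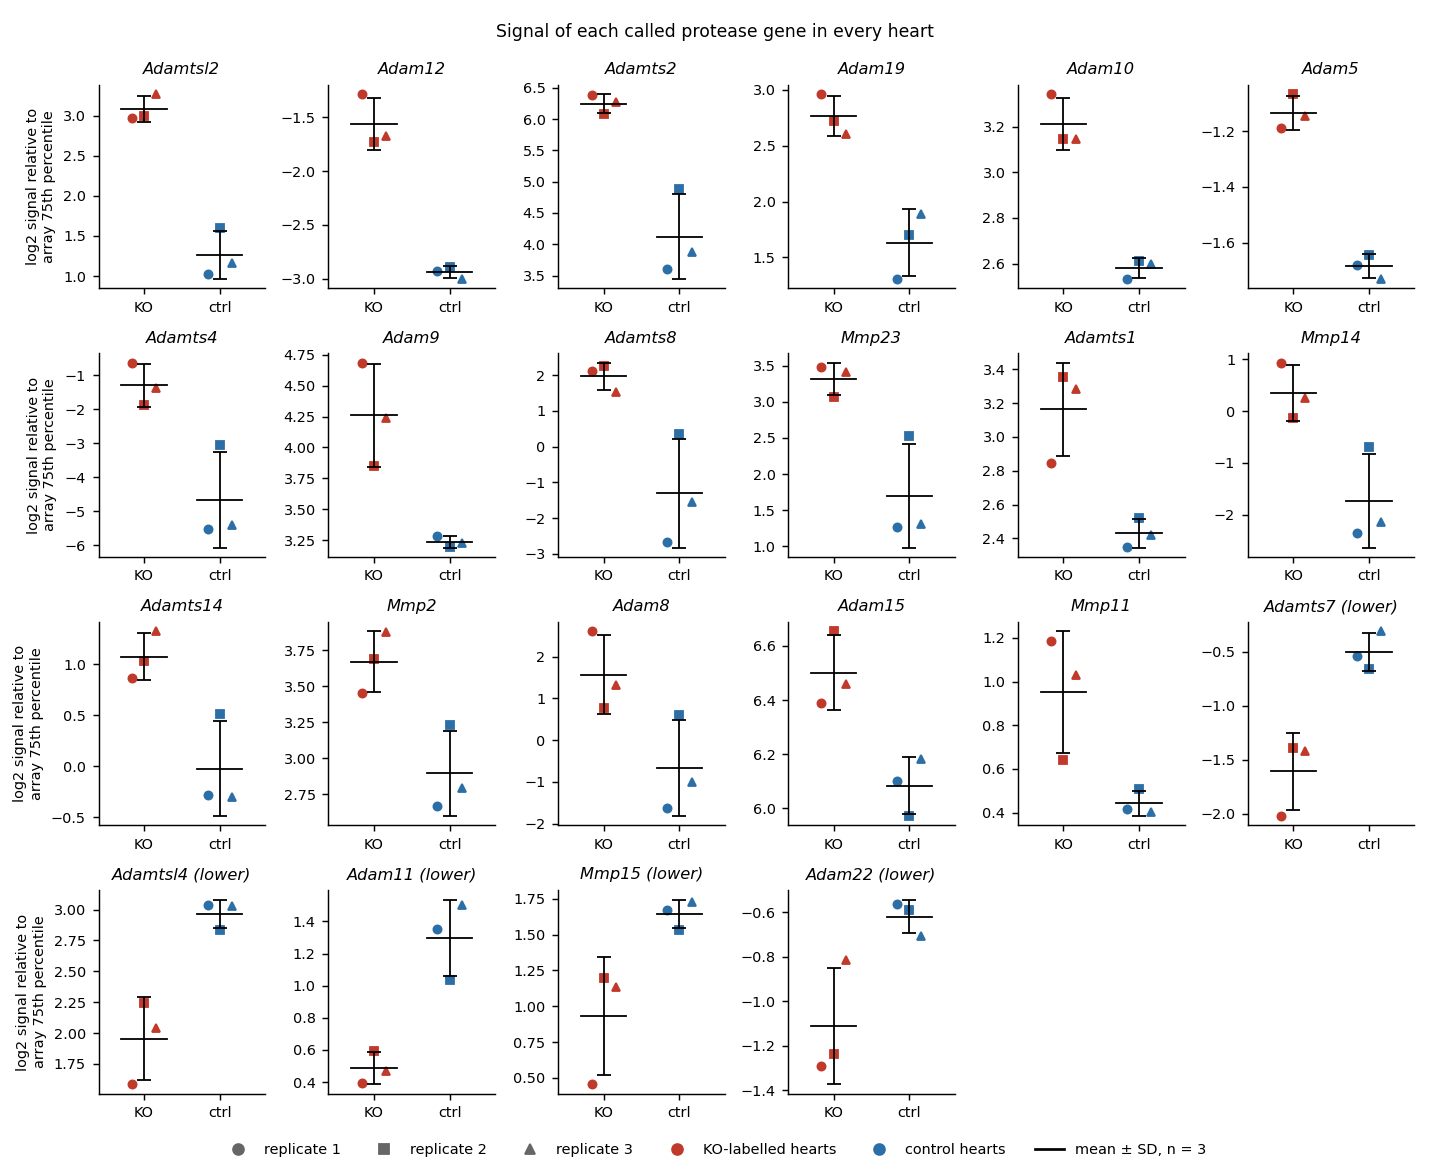
Log2 signal in each heart, relative to its array's 75th percentile, for the 22 called genes, KO-labelled hearts in red at the left and control hearts in blue at the right of each panel. Marker shapes give the replicate number, and horizontal bars the mean ± SD (n = 3). Control replicate 2 (blue square) is the control nearest to the KO-labelled hearts in panels such as Adamts2, Mmp14 and Mmp23, and not in Adam9. In Adam12 the controls lie close together.

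The hearts were not alike within the groups. Control replicate 2 was the highest control heart for 14 of the 17 genes called higher and for 20 of the 33 genes tested, against 24.3% of all features. Its share among all features called higher was not counted. Across all features this array also lay nearest to the KO-labelled arrays. It correlated with them at 0.9501 to 0.9705, control replicate 1 at 0.9229 to 0.9482 and control replicate 3 at 0.9288 to 0.9562. KO-labelled replicate 1 was the highest KO-labelled heart for 10 of the 17 and for 13 of the 33, against 37.5% of all features. Control replicate 2 also had a summed signal of 8 epithelial and mesothelial markers of 52.2 times the 75th percentile, against 7.74 and 10.1 in the other controls and 24.6 to 45.1 in the KO-labelled hearts. The part of these markers in the results was not tested. Without control replicate 2, 3 of the 33 tested genes were lower, beside 5913 of 22291 features.

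Among 8 tested inhibitor genes 0 were higher and 1 was lower (median log2 difference 0.19). Timp4, the inhibitor known for its high level in heart muscle, had -2.18, 1.92 and 0.31 in the KO-labelled hearts and 3.64, 3.28 and 3.81 in the control hearts. It was lower in every KO-labelled heart, with KO-labelled replicate 1 far below the rest (11.8-fold lower, log2 difference -3.56 ± 0.94 SE, adjusted p = 0.0262), and lost its call under 8 of 19 alternatives. Its log2 difference was -2.46 without KO-labelled replicate 1 and -4.51 without KO-labelled replicate 2. Timp1, the inhibitor induced in injured tissue, had 6.66, 4.12 and 5.29 in the KO-labelled hearts and 0.44, 4.88 and 0.55 in the control hearts. Control replicate 2 lay among the KO-labelled hearts and the difference was not called (3.40 ± 1.27 SE, adjusted p = 0.0748). Timp3, the matrix-bound inhibitor that also blocks ADAM17 and the proteoglycan-cutting ADAMTS enzymes, differed by -0.51 ± 0.16 SE (adjusted p = 0.0504) without overlap. Timp2, which takes part in the activation of MMP2 by MMP14, differed by 0.20 ± 0.11 SE (adjusted p = 0.198).

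**Figure D4:**
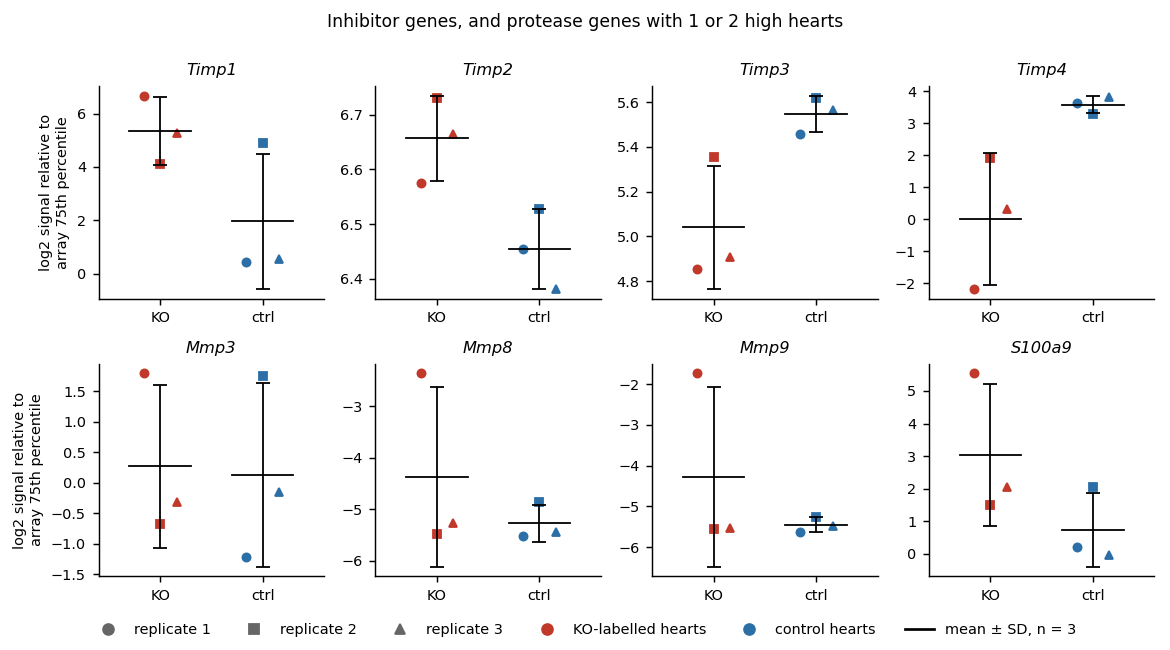
Log2 signal in each heart, relative to its array's 75th percentile, for the 4 Timp genes and for Mmp3, Mmp8, Mmp9 and the neutrophil gene S100a9, KO-labelled hearts in red at the left and control hearts in blue at the right, with the mean ± SD (n = 3). Timp4 is lower in all 3 KO-labelled hearts, and KO-labelled replicate 1 (red circle) stands alone for Mmp8, Mmp9 and S100a9.

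Of 10 tested activators, 4 were higher and 0 lower. St14 and Plau among the 4 entered the test through the KO-labelled hearts alone, and of the 8 genes above background on all control arrays 2 were higher. The membrane serine protease gene St14 (matriptase) was above background on all KO-labelled arrays and no control array. It was called higher (adjusted p = 0.00279), with a bound of 4.23-fold as processed here. That bound sets each control array at the higher of its own signal for the probe and the lowest signal of any probe above background there. It does not hold under other processing: the smallest log2 difference of St14 over 17 alternatives was 0.55, although each called it higher. The urokinase gene Plau was above background on 1 of 3 control arrays, and its log2 difference of 1.34 was 0.28 and not called with normexp (adjusted p = 0.088). The urokinase receptor gene Plaur had a log2 difference of 1.56 and the proprotein convertase gene Pcsk5 0.56, while furin itself differed by 0.20 ± 0.22 SE (adjusted p = 0.493). Plaur, Plau and Pcsk5 each lost their call under 6 or 7 alternatives.

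Of 13 tested cofactors of the sheddases and of protease-rich cell protrusions, 6 were higher and 0 lower. These included Frmd8, which keeps ADAM17 at the cell surface (log2 difference 0.89, adjusted p = 0.00432), and the tetraspanin genes Tspan14 (0.63) and Tspan17 (1.14), whose proteins escort ADAM10. Sh3pxd2b, an adaptor of the protrusions by which cells invade matrix, was higher by 1.92. Of 18 tested ligands and receptors that ADAM proteins release from the cell surface, 8 were higher and 2 lower, and 1 of the 8, Ereg, entered through the KO-labelled hearts alone. The chemokine gene Cx3cl1 (2.21), the amyloid precursor gene App (0.80), Notch2 (0.82) and the tumour necrosis factor receptor gene Tnfrsf1b (1.46) were higher on the log2 scale. The 2 lower genes, named after their values were seen, were Notch1 (-2.11) and Egf (-1.31), and Egf was not called under 10 of 19 alternatives.

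Of 18 tested matrix substrates, 15 were higher and 0 lower, with a median log2 difference of 2.19. Fbn2 and Tnc among the 15, and Acan, which was not called, entered through the KO-labelled hearts alone. Of the other 15 genes 13 were higher, with a median of 2.16. Versican (Vcan), a main substrate of the proteoglycan-cutting ADAMTS enzymes, had 2.15, 1.31 and 1.84 in the KO-labelled hearts and -0.83, -0.07 and -0.58 in the control hearts. It was far higher in every KO-labelled heart (4.8-fold, log2 difference 2.26 ± 0.28 SE). Fibrillin-1 (Fbn1), to which ADAMTS-like proteins bind, was higher by 2.75, the basement membrane collagen gene Col4a1 by 1.58, and Col5a1, whose procollagen the N-proteinases trim, by 2.26.

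Cell-type markers were measured beside these genes. Of 8 activated fibroblast markers 7 were higher and 0 lower (1 of the 7, Cthrc1, through the KO-labelled hearts alone), and their summed signal was 192 to 341 times the 75th percentile in KO-labelled hearts, against 85.3 to 104.5 in control hearts. Of 8 fibroblast markers 4 were higher and 0 lower (sums 669 to 686, against 343 to 574), and of 7 macrophage markers 4 were higher and 1 lower (142 to 233, against 74.2 to 119). The fibroblast markers Col1a1, Col3a1 and Lum (all higher) and Dcn (not called) are also among the matrix substrates above. So are Comp (higher) of the activated fibroblast list and Vwf (not called) of the endothelial list. These lists are therefore not separate measures. Of 8 smooth muscle and pericyte markers 3 were higher and 4 lower (139 to 202, against 91.2 to 94.6). Here the sums and the counts went apart, and the median log2 difference was -0.22. All these sums add signals of different probes, so the brightest markers weigh most. Of 8 cardiomyocyte markers 0 were higher and 7 lower (5254 to 6659, against 7815 to 8947), and of 8 endothelial markers 0 were called in either direction (81.6 to 91.8, against 83.9 to 110.5). Few markers of the other lists were called: 0 of 4 tested for neutrophils (with Ngp above background on no array), 1 of 4 for lymphocytes (Cd3d, through the KO-labelled hearts alone), 0 of 5 for red cells, 1 of 6 for epithelium and mesothelium (with Cdh1 and Epcam above background on no array) and 0 of 1 for testis. Their part in the differences of the protease genes was not tested.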

How the data were processed

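The authors deposited scanner files of intensity values per spot, from Agilent Feature Extraction (version 11.0.1.1) per the file headers, with the background subtracted and no scaling between arrays. Other columns of the deposited files hold flags for spots above background, saturated or outlying. A further deposited file of log2 values served as an alternative. The submitters' processing notes name R 3.1.3, and how the authors scaled that file is not given in the sources used. Outlier spots were left out (73 probes lost), repeated spots averaged, and the 75th percentile of log2 signal of each array (a signal of 147 to 235) subtracted. Of 55608 probes kept, 26551 matched a symbol by RefSeq accession. Each gene was represented by its brightest probe. KO-labelled and control hearts were compared in limma 3.58.1 under R 4.3.3 (with the package data.table, version 1.17.8), 2-sided, and the fit was checked on simulated data. With 3 hearts against 3, an exact permutation test cannot give a p below 0.1. All 6 arrays share 1 slide and 1 scan, so neither could be fitted as a block. The slide row equals the replicate number in both groups, so the replicate block among the alternatives is also a block of slide rows. Normexp (offset 50) used median signals, since the files analysed hold no mean signal column.

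The members and the gene lists were chosen with earlier results of these data known. Every member is named. Values in every heart were given for called members with a log2 difference of at least 1 in size, for the 6 further called members with the smallest p, for the member with the highest mean signal in groups with none of these, for the Timp genes, and for a few genes singled out after their values were seen. From the other lists up to 4 called genes with the smallest p were named, and others only where the text says so or to make up a small count. Replicate numbers did not pair hearts: deviations of same-numbered hearts correlated at -0.15, -0.12 and -0.08. Alternatives were normexp, quantile, cyclic loess, median and spike-in scaling, the deposited log2 values, other filters on dim probes, the mean of a gene's probes, trend and robust variance, array weights, the replicate block and leaving out each heart.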

Additional observations from a re-analysis of the deposited data

How the results depend on the processing

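Over 19 alternatives (18 for Adamts4), 80 of 417 estimates of called members were not called and 0 changed sign, while 14 of 209 estimates of uncalled members changed sign and 5 uncalled members (Adam17, Mmp17, Adamts10, Adam33 and Adamts5) were called at least once. Of all features 8434 were called as processed here, 3769 without a filter on dim probes, 14787 with array weights, 5170 with the replicate block and 4064 to 9379 without 1 heart. The count of higher members was 17 of 33 as processed here. It was 7 of 79 without that filter, where 3.43% of all features were called higher, and 6 to 18 without 1 heart. The count of lower members was 5 of 33 as processed here, beside 5020 of all 22189 features. It was 3 of 33 with cyclic loess (beside 3912 features), with spike-in scaling (2595) and with the replicate block (2946). Without the filter it was 3 of 79, beside 2081 of 49185 features. Without 1 heart it was 3 to 4, beside 2137 to 5913 features. With the replicate block, whose numbers are not stated to pair the hearts, 13 of 33 members were higher, where 10.0% of all features were called higher. Scaling moved the split: 40.5% of called features were higher as scaled here, 55.0% with cyclic loess and 60.1% with spike-in scaling, with median differences of -0.12, 0.02 and 0.13 over all features. The causes were not tested. The number of hearts, and signals near background for 46 untested members, limit what can be seen.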
